A study of Mus musculus with 7 samples.

Results

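The cell-surface amino acid transporters Slc1a4, Slc1a5, Slc3a2, Slc7a1, Slc7a5, Slc7a6, Slc7a7, Slc7a11, Slc38a1 and Slc38a2 were followed through the differentiation of mouse B cells into antibody-secreting cells. All probes that the array annotation assigns to these symbols were taken, which gave 15 probes for 10 genes, of 25697 probes and 16593 named genes on the array. RNA from sorted C57BL/6J spleen cells was hybridised to Illumina MouseRef-8 bead arrays of 1 colour, with each sample on its own array. The 2 plasma cell samples (B220low CD138+) and the 3 plasmablast samples (B220mid CD138+) were taken at day 3 after lipopolysaccharide (LPS), a bacterial cell wall component that drives B cells into antibody secretion. The 2 naive B cell samples (B220+ CD43-) came from naive mice labelled as control. All 7 samples were labelled female and 10 weeks old, and none carried an engineered allele by its labels. The labels number the samples without saying that each came from its own animal, so the p-values reflect the spread among these samples alone, which may be technical.

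Amino acids cross the plasma membrane through carriers of the solute carrier (SLC) families. Several SLC7 proteins are light chains that reach the surface only when joined by a disulfide bond to the heavy chain CD98hc, which Slc3a2 encodes, and they exchange one amino acid for another. SLC1A4 and SLC1A5 exchange small neutral amino acids, SLC38 members carry glutamine and other neutral amino acids in with sodium, and SLC7A1 brings in arginine and lysine. In lymphocytes these carriers are known for supplying leucine, glutamine and cystine during growth and protein synthesis, and many of their genes are targets of the stress factor ATF4, which binds amino acid response elements.

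The promoter windows of these genes were examined as well. RefSeq windows of 250 bases before to 50 after each annotated start (GRCm38.p6) were found for 7 of the 10 genes, 13 windows in all. They were searched on both strands for the core of the amino acid response element, TGATGNAA. It was present in 3 of these 7 genes, Slc7a11, Slc1a4 and Slc7a7. Slc1a5, Slc7a5 and Slc38a1 had no window and were not searched. Slc7a11 held 2 copies in opposite orientation, with first bases 66 and 47 before the start. Across all 32851 windows of the table, 3.97% held the core at least once and 0.070% held it 2 or more times, counting both strands. These shares are per window and not per gene, and some genes, such as Slc7a7, had several windows. The stretches around the matches are given with each match in capitals, read along the gene's strand.
Slc7a11, chr3:50443614-50443713, minus strand: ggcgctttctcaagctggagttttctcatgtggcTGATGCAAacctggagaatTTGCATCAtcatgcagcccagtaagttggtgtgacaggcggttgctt
Slc1a4, chr11:20332699-20332728, minus strand: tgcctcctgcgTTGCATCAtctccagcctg
Slc7a7, chr14:54418067-54418096, minus strand: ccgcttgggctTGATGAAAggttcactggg
Slc7a7, chr14:54417927-54417956, minus strand: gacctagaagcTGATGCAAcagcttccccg
The core of the antioxidant response element, TGACNNNGC, was in 12.4% of all windows. It was found in windows of Slc7a1, Slc7a6 and Slc38a2 and not in that of Slc7a11. These matches describe the letters in the windows only.

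Libraries and labels were checked before the comparisons. Each array detected 34.3 to 38.6% of its probes above background, that is with a detection p under 0.01, and the lowest signal above background lay between 6.26 and 6.77 on the normalised log2 scale used throughout. The Y-linked genes Eif2s3y and Kdm5d were above background on both naive B cell arrays and on 0 of the 5 LPS arrays, while the probe of a further Y-linked gene, Uty, was above background on all 7 arrays. Both Xist probes showed the opposite, above background on the 5 LPS arrays and below it on both naive B cell arrays, so by all of these but Uty the naive B cell arrays go against the label female. In every comparison with naive B cells, sex and population cannot be told apart. The plasma cell markers averaged 10.45 and 10.48 on the plasma cell arrays, 11.28 to 11.49 on the plasmablast arrays and 7.54 and 7.66 on the naive B cell arrays.

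Markers of other cell types differed between the sorted populations. Of 20 neutrophil and monocyte markers, 19 had a probe and 10 were tested. All 10 were higher in plasma cells than in naive B cells and 9 were higher in plasma cells than in plasmablasts, with a mean of 10.96 and 11.09 in plasma cells, 6.68 to 7.54 in plasmablasts and 7.06 and 7.33 in naive B cells. Over all genes tested, 33.3% were higher in plasma cells than in naive B cells and 28.7% higher than in plasmablasts. A gene was tested only if above background on at least 2 arrays. Csf3r, Itgam and Mpo were so on the plasma cell arrays alone, so both of their directions followed from that filter. S100a9 and Lcn2 were below background on both naive B cell arrays and had to be higher in plasma cells than there. Of the defining markers, Ngp, Elane, Mmp8, Mmp9, Cxcr2 and Ccr2 were below background on all 7 arrays, and Camp, Ltf and Retnlg on both plasma cell arrays. The 13 tested markers of red pulp macrophages (of 16 listed, 14 with a probe) averaged 7.92 and 8.0 in plasma cells, 5.41 to 5.89 in plasmablasts and 10.85 and 11.14 in naive B cells. Cd5l, which was not tested, was below background on all arrays, and the tested Vcam1, Cd163, Mertk and Timd4 on both plasma cell arrays. T and NK cell markers (10 tested of 16) averaged 8.34 and 8.38, 7.2 to 7.68, and 6.04 and 6.09 in the same order of populations, with Cd4, Cd8a, Cd5, Gzma and Ncr1 below background throughout. Red cell and platelet markers (9 tested of 14) averaged 5.37 and 5.44, 5.18 to 5.35, and 8.88 and 9.10 in that order. Hba-a1 averaged 14.60 in naive B cells and was below background on the LPS arrays. Klf1 was above background on the plasma cell arrays alone, and Epor and Gp1bb were below it throughout. The part of all these cell types in the transporter differences was not tested. In bulk RNA, fewer cells of a type and less RNA per cell cannot be told apart.

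Of the 10 transporter genes, 8 were measured, meaning that a probe was above background on at least 2 arrays. Slc7a5, Slc7a6, Slc7a7 and Slc38a2 were above background on all 7 arrays and Slc1a5 on 6. Slc1a4 and Slc3a2 passed through the LPS arrays alone, and Slc7a11 through the plasma cell arrays alone. These 3 therefore had to differ from naive B cells, where they were below background. Slc7a11 had to be higher in plasma cells than in plasmablasts as well. The same limit holds for any other gene named here that was above background only where it is higher. Slc7a1 and Slc38a1 were below background on every array and were not tested. Differences are from a limma model of all 7 arrays and 7425 genes, with p-values adjusted by the Benjamini-Hochberg method over all genes and a call at an adjusted p under 0.05. Where a fold is given as at least a value, the adjusted p is that of the fitted difference. The bound itself was not tested.

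Against that filter, the members are counted as a description. In plasma cells against naive B cells 6 of 8 were called higher and 1 lower, where 71.1% of all genes were called, 33.3% higher and 37.8% lower. In plasmablasts against naive B cells 7 were called higher and 1 lower, where 73.1% of all genes were called, 35.3% higher and 37.8% lower. Those 7 include Slc7a11, which was below background on every array of both populations and is not read as a rise. In plasma cells against plasmablasts 1 was called higher and 6 lower, where 74.7% of all genes were called, 28.7% higher and 46.0% lower. The member called higher there was Slc7a11, whose direction followed from the filter. The median member difference was 1.46, 1.73 and -0.80 log2 units in these comparisons. It was 0.84, 1.00 and -0.80 with members below background in 1 group set at their bound, where they had a bound. Slc1a4 had none in plasma cells against naive B cells and entered at its fitted 1.45, so 0.84 is not a lower limit for that median. The median over all genes was -0.08, -0.02 and -0.22. The 3 comparisons share samples, so their values for a gene are given side by side and are not independent of each other. With the authors' deposited normalised values the medians over members were 0.60, 0.96 and -0.46 log2 units, and with an offset of 50 in place of 16 they were 0.95, 1.40 and -0.69.

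**Figure D1:**
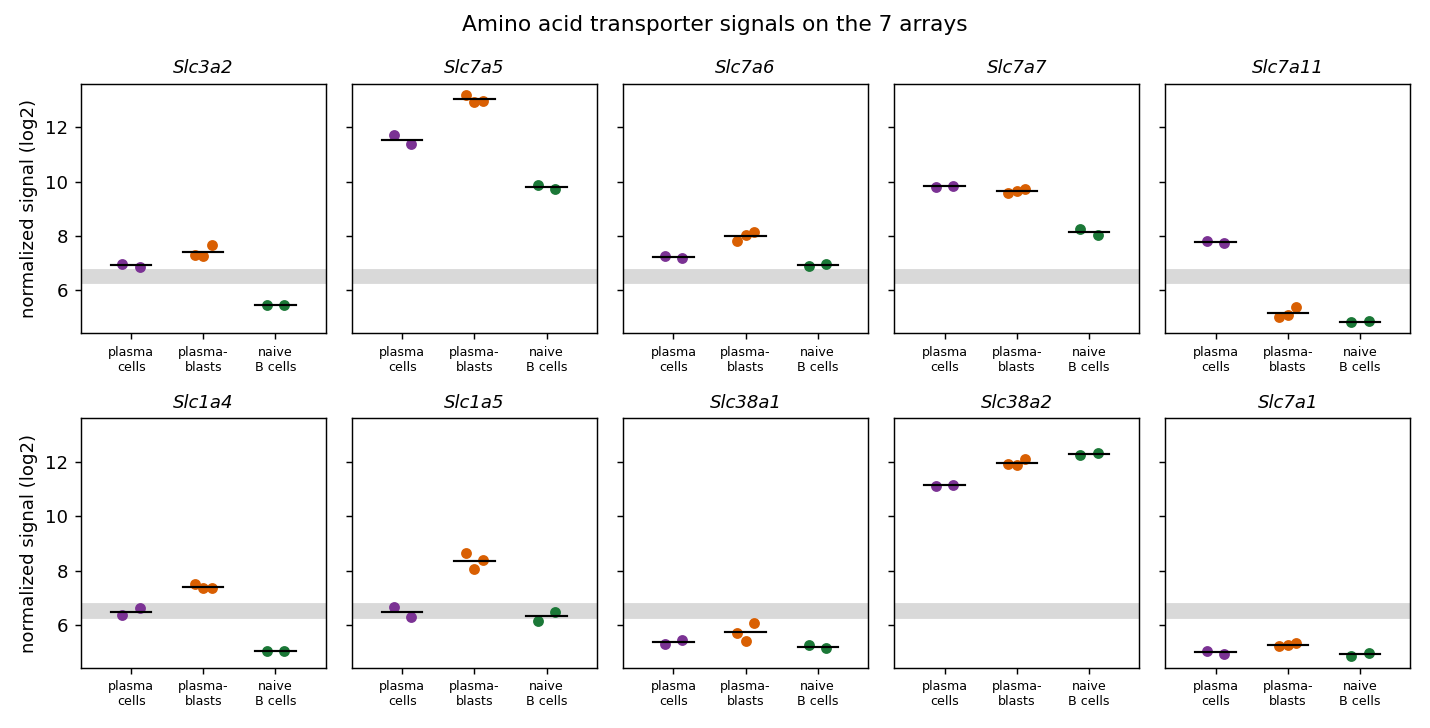
Normalised log2 signal of each transporter gene's probe on every array, for plasma cells, plasmablasts and naive B cells. Points are arrays, black lines are group means and the grey band is the range over arrays of the lowest signal above background (6.26 to 6.77). Slc7a5 is highest in plasmablasts, between 12.93 and 13.18, and Slc7a11 lies above the band on the 2 plasma cell arrays only.

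The most common pattern was a plasmablast peak. Slc1a4, Slc1a5, Slc3a2, Slc7a5 and Slc7a6 were called higher in plasmablasts than in naive B cells and lower in plasma cells than in plasmablasts, a combination met by 1948 of the 7425 genes (26.2%). All of these but Slc1a5 were also called higher in plasma cells than in naive B cells, as were 872 genes (11.7%). Slc7a7, Slc7a11 and Slc38a2 each followed another course. On the scanner scale, before any normalisation, plasma cells and plasmablasts overlapped for Slc1a4, Slc3a2 and Slc7a6. The median signal of all probes on that scale was 186 and 185 units on the plasma cell arrays and 153 to 161 on the plasmablast arrays.

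**Figure D2:**
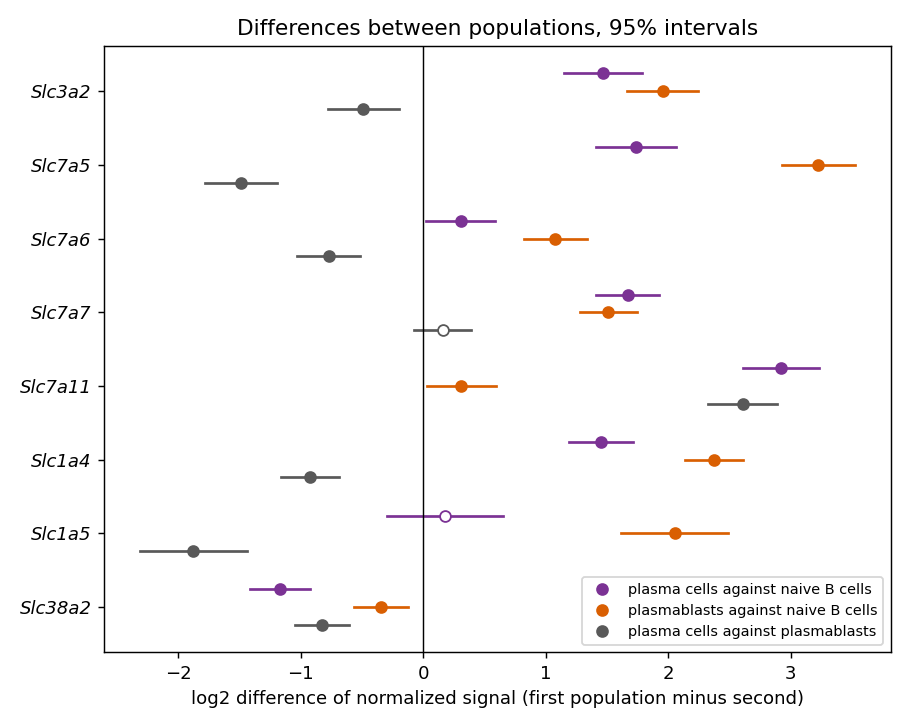
Differences of the 8 measured transporter genes in log2 units, with 95% intervals, for the 3 comparisons between the sorted populations. Filled points were called at an adjusted p under 0.05 and open points were not, among them Slc1a5 in plasma cells against naive B cells and Slc7a7 in plasma cells against plasmablasts.

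Slc3a2 encodes CD98hc, the heavy chain that the SLC7 light chains need at the surface. Its signal was 6.96 and 6.88 on the plasma cell arrays, 7.30, 7.26 and 7.65 on the plasmablast arrays, and 5.46 and 5.45 on the naive B cell arrays, where it was below background. On the normalised scale the 3 populations did not overlap, and plasmablasts were highest. The scanner read 293 and 289 units in plasma cells, 243, 251 and 303 in plasmablasts and 170 and 169 in naive B cells. Before normalisation, plasma cells therefore lay within the plasmablast range. Slc3a2 was at least 1.33-fold higher in plasma cells (adjusted p = 3.01e-05) and at least 1.86-fold higher in plasmablasts (adjusted p = 2.67e-06) than in naive B cells by limma. These 2 adjusted p-values belong to the fitted log2 differences of 1.47 and 1.95, not to the bounds. Slc3a2 was 1.40-fold lower in plasma cells than in plasmablasts (log2 -0.49, SE 0.13, adjusted p = 0.00809). With the authors' deposited normalised values Slc3a2 was 1.51-fold higher in plasma cells and 1.80-fold higher in plasmablasts than in naive B cells. The call between plasma cells and plasmablasts was lost under cyclic loess normalisation (log2 -0.17, adjusted p = 0.327) and without plasma cell replicate 2 (log2 -0.44, adjusted p = 0.0510).

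Slc7a5 encodes LAT1, the CD98hc light chain that imports leucine and other large neutral amino acids. Its normalised signal was 11.70 and 11.38 in plasma cells, 13.18, 12.93 and 12.97 in plasmablasts, and 9.88 and 9.72 in naive B cells. Every plasmablast array lay above every plasma cell array, and every plasma cell array above both naive B cell arrays. On the scanner scale, before any normalisation, the same order held, with 3992 and 3371 units in plasma cells, 8361, 7142 and 7630 in plasmablasts and 1134 and 1102 in naive B cells. Slc7a5 rose 9.35-fold in plasmablasts (log2 3.23, SE 0.13, adjusted p = 2.17e-07) and 3.34-fold in plasma cells (log2 1.74, SE 0.14, adjusted p = 1.22e-05) relative to naive B cells. It was 2.80-fold lower in plasma cells than in plasmablasts (log2 -1.49, SE 0.13, adjusted p = 1.89e-05). All 3 calls held under each of the 18 alternatives computed.

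Slc7a6 encodes y+LAT2, a light chain that exchanges arginine for neutral amino acids. It stood at 7.27 and 7.21 in plasma cells, 7.82, 8.04 and 8.16 in plasmablasts, and 6.90 and 6.96 in naive B cells. On the normalised scale the populations did not overlap, although plasma cells and naive B cells lay close together. The scanner read 329 and 328 units in plasma cells, within the plasmablast range of 296, 341 and 381, and 261 and 269 in naive B cells. Slc7a6 rose 2.11-fold in plasmablasts relative to naive B cells (log2 1.08, SE 0.11, adjusted p = 4.18e-05) and was 1.70-fold lower in plasma cells than in plasmablasts (adjusted p = 3.42e-04). Its difference of 0.31 log2 units between plasma cells and naive B cells lay at the threshold (SE 0.12, adjusted p = 0.0495). The lowest adjusted p was 0.00565, under cyclic loess, which kept the call, but the call was lost in 10 of 18 alternatives. Among those that lost it were the fits without plasma cell replicate 1 (adjusted p = 0.158), plasma cell replicate 2 (0.0968), plasmablast replicate 2 (0.0653), naive B cell replicate 1 (0.167) and naive B cell replicate 2 (0.103).

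Slc7a7 encodes y+LAT1, the light chain that moves arginine and lysine across the membrane in exchange for neutral amino acids and sodium and that macrophages also express. Its brighter probe read 9.82 and 9.82 in plasma cells, 9.57, 9.67 and 9.74 in plasmablasts, and 8.27 and 8.03 in naive B cells. Both LPS populations lay more than a full log2 unit above naive B cells and close to each other. Slc7a7 rose 3.18-fold in plasma cells (log2 1.67, SE 0.11, adjusted p = 3.87e-06) and 2.85-fold in plasmablasts (log2 1.51, SE 0.10, adjusted p = 3.15e-06). Between plasma cells and plasmablasts the difference was 0.16 log2 units (95% interval -0.07 to 0.39, adjusted p = 0.180), and it passed the threshold under cyclic loess (0.36, adjusted p = 0.0149). The other probe of the gene gave 1.63, 1.60 and 0.03 log2 units for the 3 comparisons in the same order, in a fit of all probes. In that fit 70.4, 72.0 and 74.2% of probes were called.

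Slc7a11 encodes xCT, the light chain that takes up cystine in exchange for glutamate. Its signal was 7.81 and 7.75 on the plasma cell arrays, 5.02, 5.08 and 5.40 on the plasmablast arrays, and 4.85 and 4.86 on the naive B cell arrays. It was above background on the plasma cell arrays alone. The scanner read 411 and 414 units in plasma cells, 133, 143 and 159 in plasmablasts and 129 and 132 in naive B cells. Slc7a11 was at least 2.41-fold higher in plasma cells than in naive B cells (adjusted p = 5.35e-07) and at least 2.19-fold higher in plasma cells than in plasmablasts (adjusted p = 6.38e-07) by limma. These adjusted p-values belong to the fitted log2 differences of 2.92 and 2.61, not to the bounds. Both directions followed from the filter, which Slc7a11 passed through the plasma cell arrays alone. Without plasma cell replicate 1 or replicate 2 the gene was above background on 1 array and was no longer tested. Plasmablasts and naive B cells were both below background, so no fold is given for them, and the adjusted p of 0.0472 that the fit returned there is not read as a rise. It was lost in 7 of 15 alternatives, among them the fits without plasmablast replicate 3 (0.0947), naive B cell replicate 1 (0.148) and naive B cell replicate 2 (0.133).

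**Figure D3:**
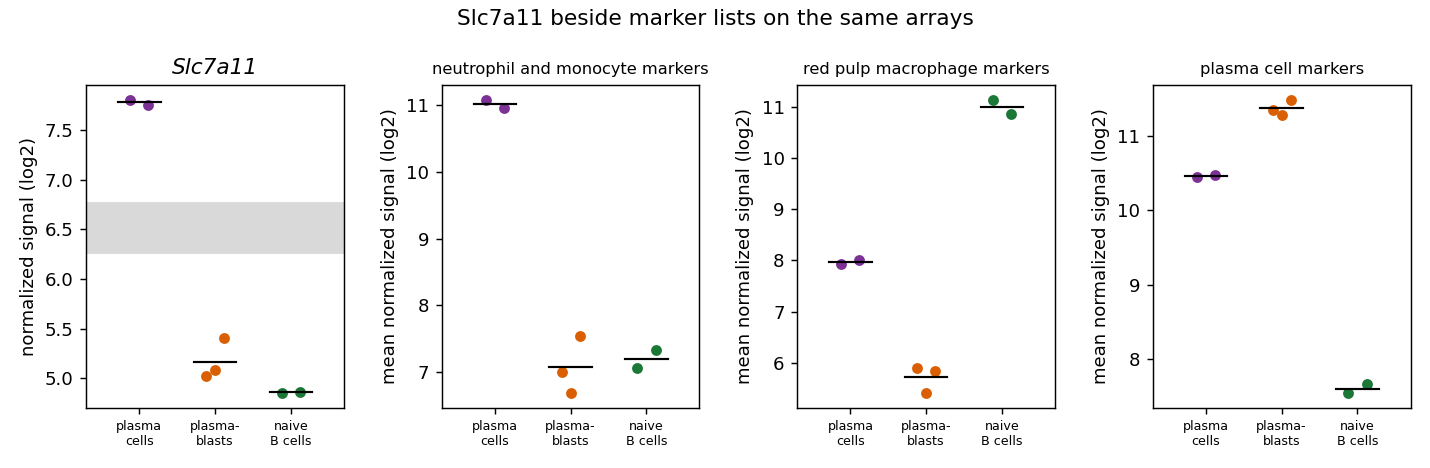
Normalised log2 signal of Slc7a11 on each array, beside the mean normalised log2 signal of the neutrophil and monocyte, red pulp macrophage and plasma cell marker lists on the same arrays, in plasma cells, plasmablasts and naive B cells. Points are arrays, black lines are group means, each panel has its own axis, and the grey band in the Slc7a11 panel is the range of the lowest signal above background. Slc7a11 and the neutrophil and monocyte markers (10.96 and 11.09) are highest on the 2 plasma cell arrays, while the plasma cell markers are highest on the plasmablast arrays.

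The plasma cell arrays that held Slc7a11 were also those with the highest neutrophil and monocyte markers, whose values are given above. Csf3r, the receptor for the neutrophil growth factor G-CSF, was 10.81 ± 0.21 (SD, n = 2) in plasma cells, 6.14 ± 0.09 (n = 3) in plasmablasts and 6.30 ± 0.11 (n = 2) in naive B cells, the last 2 below background. Il1b, a cytokine of activated myeloid cells, stood at 13.23 ± 0.04 in plasma cells, 7.40 ± 0.33 in plasmablasts and 10.12 ± 0.30 in naive B cells (SD, same n). The part of myeloid RNA in the Slc7a11 signal was not tested. Il6ra was the gene closest to Slc7a11 in pattern over the 7 arrays, with a root mean square difference of 0.162 log2 units after each gene was centred, followed by Mdm1 and Asph.

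Slc1a4 encodes ASCT1, an exchanger of alanine, serine, cysteine and threonine. It read 6.37 and 6.62 in plasma cells, 7.52, 7.38 and 7.37 in plasmablasts, and 5.06 and 5.04 in naive B cells, where it was below background. On the normalised scale the populations did not overlap. The scanner read 241 and 264 units in plasma cells, 262, 261 and 270 in plasmablasts and 146 and 145 in naive B cells. Plasma cells and plasmablasts therefore overlapped before normalisation. Slc1a4 was at least 1.88-fold higher in plasmablasts than in naive B cells (adjusted p = 3.32e-07) and 1.90-fold lower in plasma cells than in plasmablasts (log2 -0.92, SE 0.10, adjusted p = 7.75e-05). Plasma cells were called higher than naive B cells (adjusted p = 9.95e-06), with no fold because the plasma cell signal lay within the background limit of the naive B cell arrays.

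Slc1a5 encodes ASCT2, an exchanger of glutamine and other neutral amino acids. Its brighter probe gave 6.68 and 6.32 in plasma cells, 8.65, 8.08 and 8.39 in plasmablasts, and 6.17 and 6.47 in naive B cells. Plasmablasts stood apart, while plasma cells and naive B cells overlapped. Slc1a5 rose 4.15-fold in plasmablasts relative to naive B cells (log2 2.05, SE 0.19, adjusted p = 2.05e-05) and was 3.67-fold lower in plasma cells than in plasmablasts (adjusted p = 4.26e-05). Plasma cells differed from naive B cells by 0.18 log2 units (95% interval -0.30 to 0.65, adjusted p = 0.461). The other probe was also highest in plasmablasts, with 1.55 log2 units against naive B cells and -1.84 for plasma cells against plasmablasts. It put plasma cells 0.30 log2 units below naive B cells (-0.30, adjusted p = 0.0994), so the 2 probes differed in sign there and neither difference was called. Of the arrays of the dimmer populations, the brighter probe was above background on both plasma cell arrays and on 1 of 2 naive B cell arrays, and the other probe on 1 of 2 in each. With the authors' deposited normalised values, Slc1a5 was 2.20-fold higher in plasmablasts than in naive B cells and 2.09-fold lower in plasma cells than in plasmablasts, with both calls kept.

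Slc38a2 encodes SNAT2, a sodium-coupled importer of small neutral amino acids. Of its 3 probes, 1 was below background throughout. The brightest read 11.11 and 11.16 in plasma cells, 11.91, 11.87 and 12.10 in plasmablasts, and 12.27 and 12.34 in naive B cells, without overlap. By this probe Slc38a2 fell 2.24-fold in plasma cells relative to naive B cells (log2 -1.17, SE 0.10, adjusted p = 2.28e-05) and was 1.77-fold lower in plasma cells than in plasmablasts (adjusted p = 9.80e-05). Its difference between plasmablasts and naive B cells was -0.34 log2 units (SE 0.10, adjusted p = 0.0119). That call was lost under scaling to the 75th percentile (-0.10, adjusted p = 0.374) and when naive B cell replicate 2 was left out (-0.31, adjusted p = 0.0713).

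The dimmer measured probe of Slc38a2 disagreed with the brightest. It read 9.92 and 10.32 in plasma cells, 10.85, 10.35 and 11.05 in plasmablasts, and 10.04 and 10.12 in naive B cells. By this probe plasmablasts were higher than naive B cells by 0.67 log2 units (adjusted p = 0.0177) and plasma cells differed from naive B cells by 0.04 (adjusted p = 0.883). Both probes were lower in plasma cells than in plasmablasts, by 0.63 log2 units (adjusted p = 0.0225) in the dimmer. The mean of the measured probes gave -0.56 log2 units for plasma cells against naive B cells (adjusted p = 0.0110). The direction of Slc38a2 against naive B cells therefore depended on the probe, and its lower signal in plasma cells than in plasmablasts did not.

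**Figure D4:**
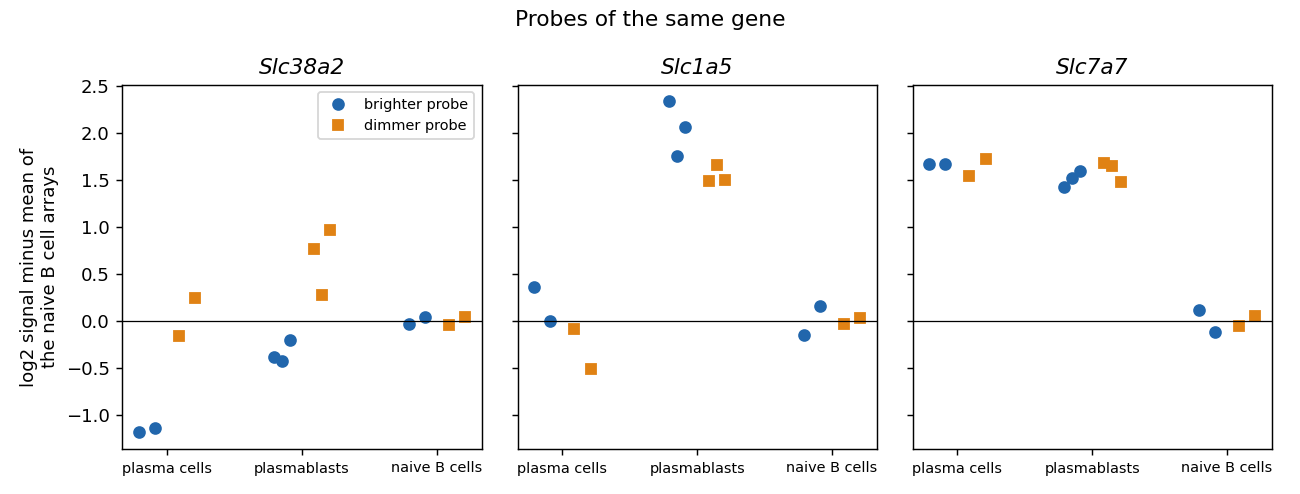
Log2 signal on every array, minus the probe's mean on the naive B cell arrays, for both measured probes of Slc38a2, Slc1a5 and Slc7a7, in plasma cells, plasmablasts and naive B cells. Circles are the brighter probe and squares the dimmer one. Both Slc7a7 probes lie above the line in both LPS populations, and both Slc1a5 probes are highest in plasmablasts but differ in sign in plasma cells. For Slc38a2 the plasmablast arrays lie below the line by the brighter probe and above it by the dimmer.

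Slc38a1, which encodes the glutamine carrier SNAT1, and Slc7a1, which encodes the cationic carrier CAT1, gave no measured level. Slc38a1 ranged from 5.16 to 6.10 over the 7 arrays with detection p-values of 0.0363 to 0.272. The 2 probes of Slc7a1 ranged from 4.76 to 5.36 with detection p-values of 0.188 to 0.932. Neither gene was above background in any population, and no order of the populations is read from them.

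Genes with the most similar pattern over the 7 arrays were found by the root mean square difference of centred log2 signals. For Slc7a5 these were Foxm1 (0.087 log2 units), a transcription factor of mitosis, Tmem97 (0.091) and Tyms-ps (0.095). For Slc1a4 they were Slc39a7 (0.073), Preb (0.083) and Calu (0.084). For Slc3a2 they were Pik3cg, Atp6v0a2 and Arcn1, for Slc1a5 Xk, B9d1 and Psmc3ip, and for Slc7a6 Stx5a, Mvb12a and Gorasp2. Pcyt1a, Cyfip2 and Selplg were nearest to Slc7a7, and Slc29a3, Nup160 and Apobec3 to the brightest Slc38a2 probe. Among the members the closest pairs were Slc1a4 with Slc3a2 (0.271) and Slc3a2 with Slc7a7 (0.301).

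Of 41 other plasma membrane amino acid transporters, 37 had a probe and 9 were measured. Of these 9, 4 were called higher and 1 lower in plasma cells against naive B cells, 4 higher and 3 lower in plasmablasts against naive B cells, and 4 higher and 3 lower in plasma cells against plasmablasts, with medians of 0.46, 0.27 and 0.02 log2 units. Over all genes 33.3% were called higher and 37.8% lower in the first comparison, 35.3% and 37.8% in the second, and 28.7% and 46.0% in the third. Slc7a3, which encodes the cationic carrier CAT3, showed the largest difference among the 9. It read 7.58 and 7.64 in plasma cells, 10.31, 10.51 and 10.37 in plasmablasts, and 4.996 and 5.21 in naive B cells, below background. The populations lay far apart, but Slc7a3 passed the filter through the LPS arrays alone and so had to differ from naive B cells. Slc7a3 was at least 14.8-fold higher in plasmablasts (adjusted p = 1.93e-08) and at least 2.15-fold higher in plasma cells (adjusted p = 4.96e-07) than in naive B cells, and 6.90-fold lower in plasma cells than in plasmablasts (adjusted p = 1.70e-07). The cationic carrier Slc7a2 was below background on all arrays with each of its 3 probes.

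Slc16a10, Slc6a6 and Slc7a8 had their highest mean in plasma cells. Slc16a10, the aromatic amino acid carrier TAT1, read 9.07 ± 0.18 in plasma cells (SD, n = 2), 6.40 ± 0.21 in plasmablasts (n = 3) and 6.72 ± 0.40 in naive B cells (n = 2). It was above background on 1 of 3 plasmablast arrays, and the fitted difference of 6.35-fold between plasma cells and plasmablasts (adjusted p = 6.31e-06) rests partly on signals below background. Slc6a6, the taurine transporter, was 4.11-fold higher in plasma cells than in plasmablasts (log2 2.04, SE 0.08, adjusted p = 3.38e-07) and 2.35-fold lower in plasmablasts than in naive B cells (adjusted p = 3.84e-06). Slc7a8, the CD98hc light chain LAT2, was at least 1.95-fold higher in plasma cells than in naive B cells (adjusted p = 3.63e-05) and 1.55-fold higher in plasma cells than in plasmablasts (adjusted p = 0.00838), where 2 of 3 arrays were above background. Slc38a10, of the SNAT family, was at least 2.6-fold higher in plasmablasts than in naive B cells (adjusted p = 7.92e-05). Slc1a3, a glutamate transporter, was at least 3.65-fold lower in plasma cells and at least 2.79-fold lower in plasmablasts than in naive B cells (adjusted p = 1.04e-07 and 6.32e-08). Slc1a3 passed the filter through the naive B cell arrays alone, so it had to be lower in both LPS populations. Slc38a9, a lysosomal arginine sensor, was 1.44-fold lower in plasmablasts than in naive B cells (adjusted p = 0.0103) and had an adjusted p of 0.0837 in plasma cells against naive B cells.

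**Figure D5:**
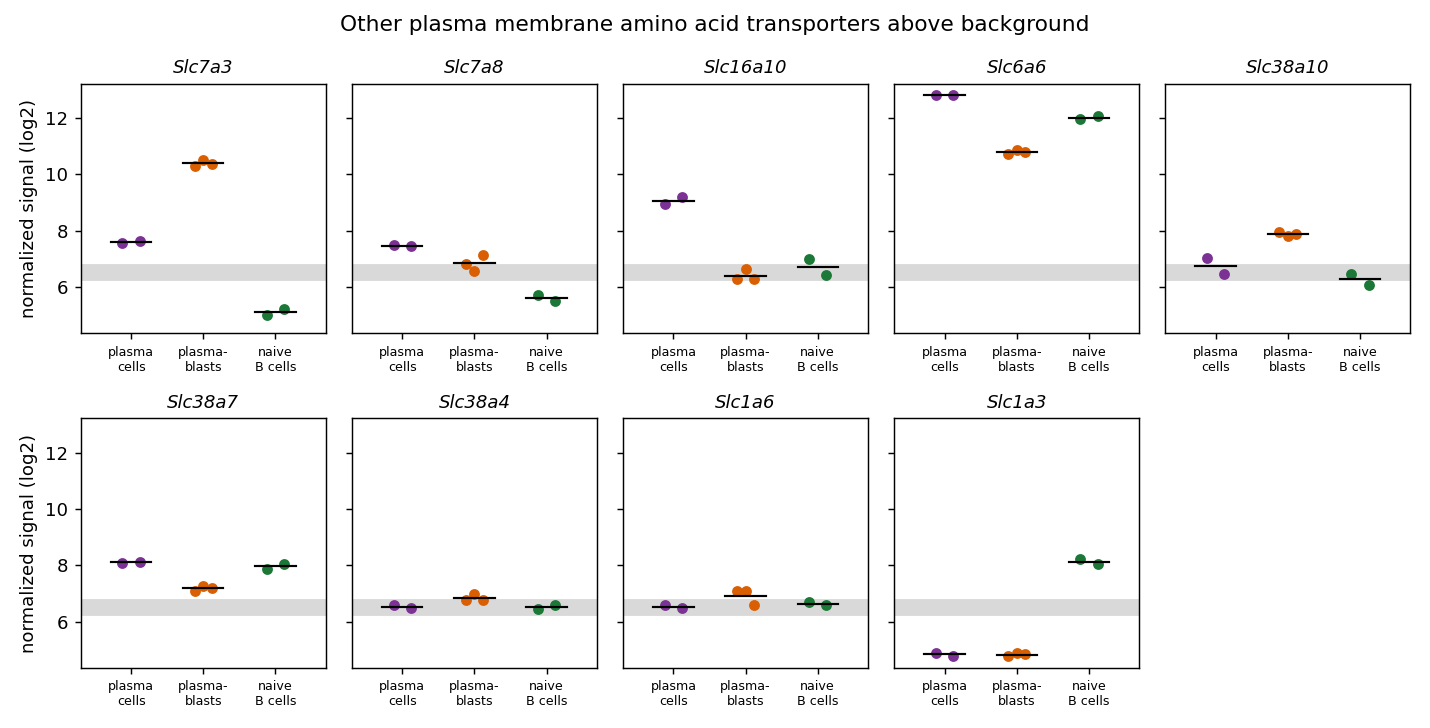
Normalised log2 signal on each array of other plasma membrane amino acid transporters, in plasma cells, plasmablasts and naive B cells. Points are arrays, black lines are group means and the grey band is the range of the lowest signal above background. Slc7a3 is highest in plasmablasts, between 10.31 and 10.51, and Slc16a10 and Slc6a6 are highest in plasma cells.

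Lists of genes around amino acid supply were counted next, and each count reads against the shares over all genes given above: 33.3% higher and 37.8% lower in plasma cells against naive B cells, 35.3% and 37.8% in plasmablasts against naive B cells, and 28.7% and 46.0% in plasma cells against plasmablasts. Among 12 measured lysosomal and mitochondrial amino acid carriers, 7 were higher and 1 lower in plasma cells than in naive B cells, 3 higher and 6 lower in plasmablasts than in naive B cells, and 8 higher and 2 lower in plasma cells than in plasmablasts. Slc15a3, a lysosomal histidine and peptide carrier, was 3.57-fold higher in plasma cells than in plasmablasts (adjusted p = 6.21e-06). In plasmablasts against naive B cells, Slc15a4, of the same lysosomal family, was 4.07-fold lower (adjusted p = 1.90e-05) and the mitochondrial carrier Sfxn3 at least 1.88-fold lower (adjusted p = 6.25e-06). Sfxn1, a mitochondrial serine carrier, was 2.02-fold higher in plasmablasts than in naive B cells (adjusted p = 1.54e-05).

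Of 11 measured genes that make or use glutamine, glutamate and aspartate, 8 were higher and 1 lower in plasma cells than in naive B cells, 9 higher and 1 lower in plasmablasts than in naive B cells, and 1 higher and 9 lower in plasma cells than in plasmablasts. Their medians were 0.62, 1.84 and -0.91 log2 units. Asns, asparagine synthetase, was at least 16.8-fold higher in plasma cells and at least 29.7-fold higher in plasmablasts than in naive B cells (adjusted p = 3.05e-08 and 1.04e-08). Psat1 and Phgdh, enzymes of serine synthesis, were 3.08-fold and 2.72-fold lower in plasma cells than in plasmablasts (adjusted p = 1.92e-05 and 2.33e-05). Of 8 measured branched-chain amino acid genes, 4, 5 and 1 were higher and 3, 2 and 7 lower in the 3 comparisons. Bcat1, the cytosolic leucine transaminase, was at least 10.5-fold higher in plasmablasts than in naive B cells (adjusted p = 4.57e-08) and 6.18-fold lower in plasma cells than in plasmablasts (adjusted p = 4.61e-07).

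Of 8 measured genes of cystine use, 7 were higher and 0 lower in plasma cells than in naive B cells, 4 higher and 3 lower in plasmablasts than in naive B cells, and 5 higher and 1 lower in plasma cells than in plasmablasts. Chac1, which degrades glutathione, was at least 9.68-fold higher in plasma cells and at least 13.3-fold higher in plasmablasts than in naive B cells (adjusted p = 3.31e-08 and 1.93e-08). Txn1, thioredoxin, rose 5.58-fold in plasma cells relative to naive B cells (adjusted p = 2.75e-07). Gclm, a subunit of the glutathione-making ligase, rose 2.17-fold in plasma cells (adjusted p = 6.10e-05) and 1.93-fold in plasmablasts (adjusted p = 8.28e-05), and its partner Gclc was below background on all arrays. Of 9 measured arginine and ornithine genes, 7 were higher and 2 lower in plasma cells than in naive B cells, 5 higher and 2 lower in plasmablasts than in naive B cells, and 4 higher and 5 lower in plasma cells than in plasmablasts. Sat1, which acetylates polyamines for export and breakdown, was 9.79-fold higher in plasma cells than in plasmablasts (adjusted p = 3.93e-08). Ass1, which makes the arginine precursor argininosuccinate, rose 5.50-fold in plasma cells relative to naive B cells (adjusted p = 8.39e-06). Odc1, the first enzyme of polyamine synthesis, was 2.73-fold higher in plasmablasts than in naive B cells (adjusted p = 5.31e-06).

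Of 16 measured regulators of the transporters, 7 were higher and 6 lower in plasma cells than in naive B cells, 8 higher and 6 lower in plasmablasts than in naive B cells, and 5 higher and 10 lower in plasma cells than in plasmablasts. Atf4, the factor of the amino acid response, stood at 10.999 ± 0.14 in plasma cells (SD, n = 2), 12.16 ± 0.07 in plasmablasts (n = 3) and 11.94 ± 0.03 in naive B cells (n = 2), 1.92-fold lower in plasma cells than in naive B cells (adjusted p = 6.93e-05). Ddit3, its target CHOP, was lower than in naive B cells in both (log2 -1.03 in plasma cells and -0.68 in plasmablasts, adjusted p = 1.75e-04 and 0.00104). Myc fell below background in both LPS populations, at least 3.50-fold lower in plasma cells and at least 2.68-fold lower in plasmablasts than in naive B cells (adjusted p = 6.03e-07 and 1.28e-06).

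Nfe2l2, whose product NRF2 activates Slc7a11 under oxidative stress, was 9.43 ± 0.19 in plasma cells (SD, n = 2), 6.20 ± 0.17 in plasmablasts (n = 3), below background, and 7.38 ± 0.11 in naive B cells (n = 2). It was at least 6.85-fold higher in plasma cells than in plasmablasts (adjusted p = 2.92e-07) and 4.14-fold higher than in naive B cells (adjusted p = 5.50e-06). Bach1, a repressor of NRF2 targets, was 4.49-fold higher in plasma cells than in plasmablasts (adjusted p = 9.20e-06). Cebpb, also abundant in myeloid cells, was 12.1-fold higher in plasma cells than in plasmablasts (adjusted p = 5.04e-08). These 3 genes were highest on the arrays with the highest neutrophil and monocyte markers, and the part of those cells was not tested.

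Of 30 measured genes of amino acid sensing by mTORC1, 8 were higher and 13 lower in plasma cells than in naive B cells, 11 higher and 14 lower in plasmablasts than in naive B cells, and 7 higher and 12 lower in plasma cells than in plasmablasts. The stress-induced sestrins Sesn1 and Sesn3 were lower in plasma cells than in naive B cells, by 2.96-fold (adjusted p = 2.13e-05) and at least 2.58-fold (adjusted p = 1.16e-06). Sesn2, a leucine sensor, was at least 1.16-fold higher in plasma cells than in naive B cells (adjusted p = 8.90e-04). Mtor, the kinase itself, was 1.30-fold higher in plasmablasts than in naive B cells (adjusted p = 0.00736), and differed by -0.01 log2 units between plasma cells and naive B cells (adjusted p = 0.944).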

How the data were processed

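The deposited non-normalized table held an intensity per probe and array and a detection p-value, scored by the authors' software (GenomeStudio 2011.1 per the submitters' processing notes). In R 4.3.3 with limma 3.58.1, neqc corrected the background from the detection p-values, added an offset of 16, quantile normalised the 7 arrays and took log2. The probe annotation gave 1 symbol for 23978 probes and none for 1719. Named probes above background (detection p under 0.01) on at least 2 arrays were kept, and the probe with the highest mean stood for a gene, leaving 7425 genes. Genes were not compared with each other in level. A limma model of 3 group means was tested with eBayes, with 4 residual and 3.83 prior degrees of freedom. Where all arrays of the dimmer group lay below background, a fold is a bound, taken against the lowest signal that those arrays placed above background. The adjusted p beside a bound is that of the fitted difference, which uses the signals below background. The steps were tested on simulated data. All arrays were on 1 slide, so no slide term was used, and signal over background limits the precision.

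The transporters and gene lists were chosen with earlier results of these data known. The rule for named genes was all members, up to 3 called genes per list and comparison, a fixed set (Atf4, Ddit3, Myc, Nfe2l2, Gclc, Gclm, Asns, Odc1, Bcat1, Mtor, Sesn2, Slc7a2, Slc7a8, Slc43a1 and Slc38a9, of which Slc43a1 had no named probe, and an item not reported here), and the 3 genes most like each member. Lists covered other transporters, intracellular carriers, mTORC1 sensing, regulators, use of cystine, glutamine, arginine and branched-chain amino acids, and markers of B cells, plasma cells, macrophages, neutrophils and monocytes, dendritic cells, T and NK cells and red cells and platelets. Naive B cell markers were lower in 9 of 10 tested genes in plasma cells and in 10 of 10 in plasmablasts than in naive B cells. Dendritic cell markers had 2 tested genes, and 8 of 9 red cell and platelet markers were lower in both LPS populations. Over all genes 37.8% were lower in each LPS population than in naive B cells. Deviations of same-numbered arrays from their group means gave r of -0.03 to 0.17 between groups. Between plasmablasts and plasma cells r was 0.17 for replicate 1 and 0.09 for replicate 2. In a group of 2 arrays the deviations mirror each other, so this check cannot decide whether arrays were paired. The labels state no pairing, and the replicate number entered an alternative fit only. The alternatives tried were other scalings, the authors' deposited normalized intensity, another offset, no filter, the mean of a gene's probes, single-probe fits, an intensity trend, a replicate block, the groups compared alone and each replicate left out.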

Additional observations from a re-analysis of the deposited data

How the results depend on the processing

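Over the single transporter results, the side of the threshold, and the direction of called values, was kept by 134 of 145 values in plasma cells against naive B cells, 133 of 144 in plasmablasts against naive B cells and 142 of 145 in plasma cells against plasmablasts. The uncalled difference of Slc1a5 between plasma cells and naive B cells (0.18) changed sign in 4 of these: with the other probe (-0.30), the mean of its probes (-0.06), the 2 groups compared alone (-0.32) and without plasma cell replicate 1 (-0.0040). Slc38a2 changed sign with the other probe (0.039 in plasma cells and 0.67 in plasmablasts, against naive B cells) and with the mean of its probes (0.16 in plasmablasts against naive B cells). The count of members lower in plasmablasts than in naive B cells was then 0 under the mean of probes, 0 under 75th percentile scaling and 0 without naive B cell replicate 2. The count higher in plasma cells than in plasmablasts was 2 under cyclic loess (Slc7a7 added). With the authors' deposited normalised values and with an offset of 50, called differences kept their direction, and some folds were smaller: Slc7a11 was 2.67-fold and 4.03-fold in plasma cells against naive B cells, 2.32-fold and 3.62-fold in plasma cells against plasmablasts, and Slc1a4 2.09-fold and 3.07-fold in plasmablasts against naive B cells. The cause was not tested.

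Leaving out each replicate in turn gave 4 to 6 members higher in plasma cells than in naive B cells, 6 to 7 in plasmablasts than in naive B cells and 0 to 1 in plasma cells than in plasmablasts, and 1, 0 to 1 and 5 to 6 lower. The count of 0 came without plasma cell replicate 1 and without plasma cell replicate 2, since Slc7a11 then no longer passed the filter. With replicate number as a block, members called higher were 6, 6 and 1 and lower 1, 1 and 6, and Slc7a11 in plasmablasts against naive B cells had a difference of 0.19 (adjusted p = 0.126), the one call of a transporter that the block changed.

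Cyclic loess moved the all-gene median by 0.17 log2 units in plasma cells against naive B cells and by 0.22 in plasma cells against plasmablasts, where 52.5% of called genes were then higher, against 38.4%. Calls over all genes stayed between 4515 and 5814 across alternatives.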
